A study of Mus musculus with 12 samples.

Results

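Keratins build the intermediate filaments of epithelial cells, and each filament pairs a type I with a type II keratin. Cells that leave the basal layer of a stratified epithelium replace their basal pair with suprabasal pairs. In internal mucosa such as esophagus and tongue this pair is Krt4 with Krt13, and in epidermis it is Krt1 with Krt10. The 10 genes described here are the suprabasal mucosal keratins Krt4, Krt13, Krt76 and Krt78, the suprabasal epidermal keratins Krt1, Krt10 and Krt2, and the less studied keratins Krt23, Krt24 and Krt80. They were listed by gene symbol, with earlier results of these data known, and all 10 were found among 24477 genes tested. The array holds 54 keratin genes in all, so 44 others remained for comparison.

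The series followed tongue tumorigenesis in male CBA mice. The carcinogen 4-nitroquinoline 1-oxide (4-NQO), which forms DNA adducts, was given in drinking water. From a larger set of mice, 9 treated mice and 3 untreated control mice were selected for arrays. Epithelial cells were laser-microdissected from normal mucosa of the controls and from hyperplasia, dysplasia or tumor of treated mice, 1 lesion and 1 array per mouse and 3 mice per stage. The labelled ages were 12, 20 and 24 weeks for normal mucosa, 16, 20 and 20 weeks for hyperplasia, 16, 16 and 24 weeks for dysplasia, and 16, 20 and 24 weeks for tumor. The study's text gives these numbers as weeks of the experiment instead, and which of the readings holds was not settled here. Untreated mucosa was thus compared with treated lesions, and no treated mouse with normal histology was included, so that in comparisons with normal mucosa carcinogen exposure and lesion stage cannot be told apart. All levels are log2 expression values, on which a difference of 1 is a 2-fold change. A difference is named as called where its limma p, adjusted by Benjamini-Hochberg over all genes, was under 0.05.

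The arrays were alike as wholes. Their medians lay between 6.16 and 6.35 and their highest values between 13.54 and 13.89. Over all genes, arrays of the same stage correlated at r = 0.929 to 0.963, and all pairs of arrays at 0.904 to 0.967. The mean of 20 epithelial reference genes stayed between 9.89 and 10.34 in the 12 mice. The mean of 20 skeletal muscle genes, in contrast, ran from 6.08 to 9.00 in normal mucosa and from 5.72 to 6.89 in tumors, although none of the 20 was called. By the study's sample table, every tumor RNA had a higher integrity number (RIN) than every normal RNA. The study itself reported no significant RIN difference between the stages. Between tumor and normal mucosa, RIN and stage can therefore not be fully told apart.

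The 10 genes lie in the mouse keratin clusters. On GRCm38.p6, the type I genes Krt24, Krt10, Krt23 and Krt13 are on chromosome 11 between 99279959 and 100121566, and the type II genes Krt80, Krt2, Krt1, Krt76, Krt4 and Krt78 are on chromosome 15 between 101348315 and 101996624. RefSeq promoter sequences were found for 7 of the 10 genes, Krt24, Krt10, Krt23, Krt13, Krt2, Krt76 and Krt78. The 250 bases before the start site are printed 5′ to 3′ on the gene's strand for 4 genes on which the results turn. They are Krt76 and Krt78, both lower in dysplasia and tumor, Krt10, which was not lower in hyperplasia, and Krt13, the partner of Krt4. Capitals mark a TATA box (TATAAA) or an AP-1 motif (TGANTCA).
Krt76, chr15:101892921-101893170, minus strand: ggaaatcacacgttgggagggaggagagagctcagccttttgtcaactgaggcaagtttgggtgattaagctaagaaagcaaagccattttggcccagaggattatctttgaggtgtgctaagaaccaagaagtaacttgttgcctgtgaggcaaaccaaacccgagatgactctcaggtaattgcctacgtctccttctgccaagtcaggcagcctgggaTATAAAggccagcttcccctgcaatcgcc
Krt78, chr15:101954288-101954537, minus strand: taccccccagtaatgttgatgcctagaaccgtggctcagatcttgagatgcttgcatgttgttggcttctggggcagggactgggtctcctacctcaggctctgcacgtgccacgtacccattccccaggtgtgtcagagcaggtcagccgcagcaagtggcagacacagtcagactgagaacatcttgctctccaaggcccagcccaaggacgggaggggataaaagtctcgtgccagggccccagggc
Krt10, chr11:99389365-99389614, minus strand: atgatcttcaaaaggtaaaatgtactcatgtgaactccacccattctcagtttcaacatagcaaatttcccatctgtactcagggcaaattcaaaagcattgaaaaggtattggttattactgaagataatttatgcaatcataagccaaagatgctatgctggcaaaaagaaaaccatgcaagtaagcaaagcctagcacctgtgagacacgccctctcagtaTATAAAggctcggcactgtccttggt
Krt13, chr11:100121567-100121816, minus strand: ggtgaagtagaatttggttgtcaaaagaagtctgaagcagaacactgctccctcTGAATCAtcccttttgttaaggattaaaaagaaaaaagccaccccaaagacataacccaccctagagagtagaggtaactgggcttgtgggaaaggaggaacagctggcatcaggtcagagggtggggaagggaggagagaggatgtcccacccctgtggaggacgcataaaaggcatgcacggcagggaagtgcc

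A TATA box stood at positions −29 to −24 from the start site of Krt76 and at −26 to −21 from that of Krt10. The letters TATAAA were found in 2 of the 7 genes and in 13.6% of all 32851 RefSeq promoters of the same 300-base length, both strands searched. An AP-1 motif was found in Krt13 alone, at −196 to −190 in the sequence printed above, and in 7.81% of all promoters. A further Krt13 promoter in the RefSeq table, not printed, held the motif at 2 places. The KLF-type letters CACCC were found in 5 of the 7 genes (57.5% of all promoters) and the C/EBP letters TTNNGNAA also in 5 (40.7%). The GRHL letters AACCNGTT (2.09% of all promoters) and the AP-2 letters GCCNNNGGC (16.6%) were in none of the 7 genes. A gene counts if any of its promoters held the letters, while the percentages are per promoter, so the units differ. Krt13 had the C/EBP letters only in the promoter not printed. No match overlapped another motif. These are descriptions of letters in a window and not of bound sites.

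Suprabasal keratins were lower in tumor than in normal mucosa. Krt4, Krt76, Krt78, Krt24 and Krt80 fell, from 4.84-fold for Krt80 to 30-fold for Krt76. That is 5 of 10 genes, beside a background of 1.23% of all genes tested that were called lower, and none of the 10 rose (0.744%). In either direction 1.97% of all genes were called. At an unadjusted p under 0.05 there were 7 of the 10, with Krt13 and Krt10 added, beside 16.9% of all genes. Levels of 9 of the 10 genes were lower in all 3 tumors than in any normal sample, which held for 13.0% of all genes, and only Krt1 overlapped. The median difference of the 10 genes was −2.41, against −0.053 over all genes. By the study's rule of a difference of group means beyond 1, 7 of the 10 were lower (3.09% of all genes).

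**Figure D1:**
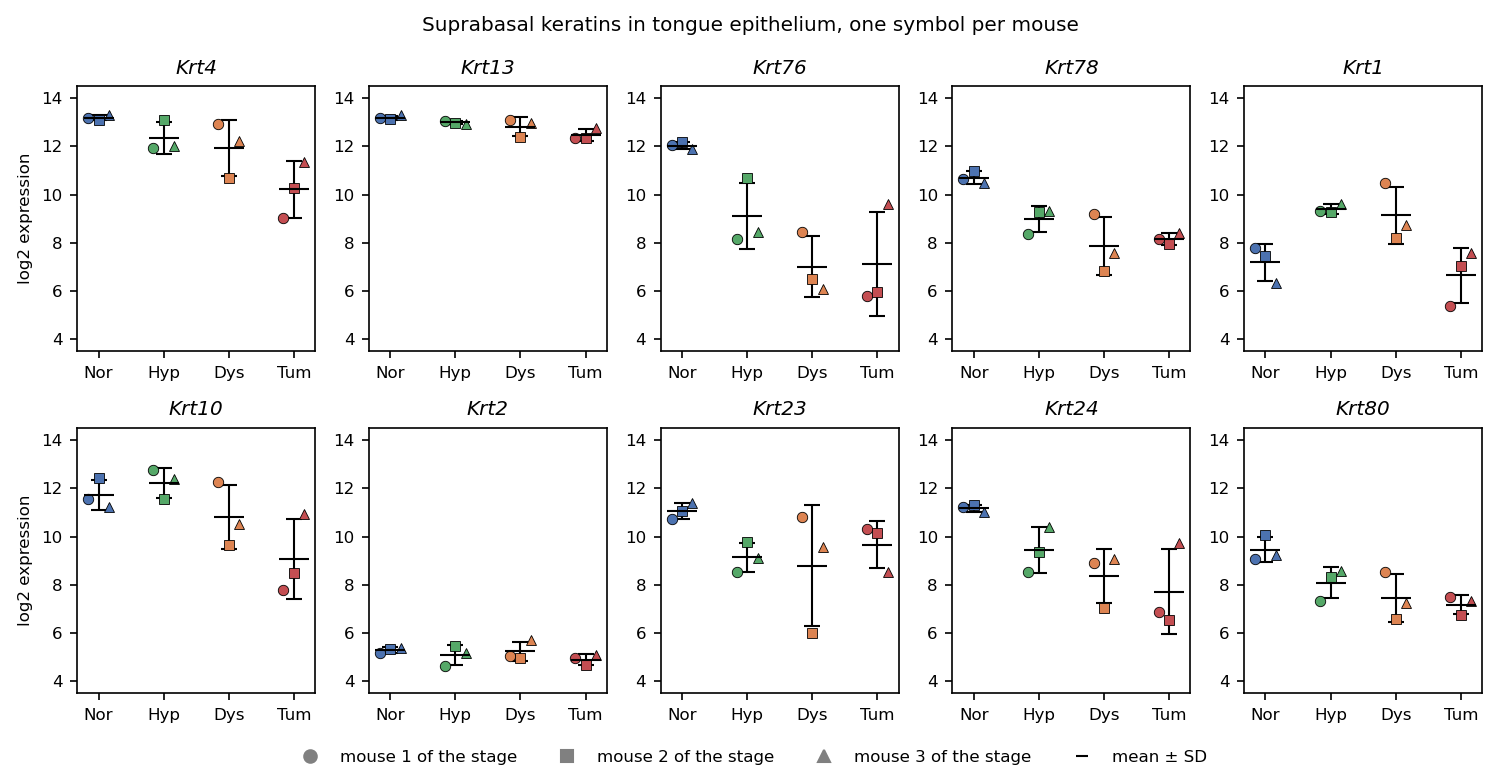
Log2 expression of the 10 keratin genes (vertical axis, 1 panel per gene, same scale) in normal mucosa (Nor), hyperplasia (Hyp), dysplasia (Dys) and tumor (Tum). Symbols are single mice, and bars give the mean ± SD of 3 mice. Normal samples lie close together for Krt4, Krt13, Krt76 and Krt24, and lesions spread widely, as for Krt76 in tumors (5.81, 5.97 and 9.60).

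Of the mucosal pair, Krt4 fell in tumor and Krt13 was not called, and the difference between the 2 genes was not tested. Krt4 was at 13.16, 13.11 and 13.30 in the normal samples, at 11.91, 13.09 and 12.03 in hyperplasia, at 12.94, 10.67 and 12.23 in dysplasia, and at 9.03, 10.26 and 11.37 in tumors. All lesions were thus below the lowest normal sample, and the tumors also lay below every hyperplasia. Krt4 fell 7.84-fold between normal mucosa and tumor (log2 difference −2.97, SE 0.60, limma adjusted p = 0.0286), and the difference was −2.37 without tumor 1. In hyperplasia and dysplasia its differences from normal mucosa were −0.85 (95% interval −2.16 to 0.47) and −1.25 (−2.56 to 0.07), neither of them called.

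Krt13 stayed near its normal level in most lesions. Its values were 13.17, 13.13 and 13.28 in normal mucosa, 13.07, 12.97 and 12.92 in hyperplasia, 13.10, 12.39 and 12.97 in dysplasia, and 12.33, 12.34 and 12.77 in tumors. Every lesion was below every normal sample, but the tumor difference of −0.71 (95% interval −1.17 to −0.26) was not called (adjusted p = 0.105). The values of Krt13, like those of Krt4 in normal mucosa, approach the highest of each array, and whether the upper end of the scale compressed either difference was not tested. Relative to normal mucosa, Krt4 minus Krt13 was −0.64 ± 0.67 in hyperplasia, −0.87 ± 0.79 in dysplasia and −2.26 ± 0.96 in tumors (SD, n = 3), with values of −3.30, −2.07 and −1.40 in the 3 tumors.

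Krt76, a type II keratin of palate and other masticatory mucosa, showed the widest difference of the 10 genes. It stood at 12.07, 12.16 and 11.88 in normal mucosa, at 8.16, 10.67 and 8.46 in hyperplasia, at 8.44, 6.50 and 6.08 in dysplasia, and at 5.81, 5.97 and 9.60 in tumors. No lesion reached the lowest normal sample, while tumor 3 stayed well above the other tumors. Krt76 fell 32.6-fold between normal mucosa and dysplasia (log2 difference −5.02, SE 0.95, limma adjusted p = 0.0342). The tumor difference was −4.90 (SE 0.95, adjusted p = 0.0240), with a range from −6.14 without tumor 3 to −4.25 without tumor 1. In hyperplasia the difference was already −2.94 (95% interval −5.00 to −0.87), which was not called (adjusted p = 0.333).

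Krt78, a type II keratin of stratified epithelia, followed a similar course. Its values were 10.66, 10.97 and 10.47 in normal mucosa, 8.35, 9.26 and 9.31 in hyperplasia, 9.20, 6.83 and 7.57 in dysplasia, and 8.15, 7.94 and 8.40 in tumors. No lesion sample overlapped the normal samples, and the tumors lay within the range of the dysplasias. The fall was 7.12-fold in dysplasia (−2.83, SE 0.47, limma adjusted p = 0.0200) and 5.81-fold in tumor (−2.54, SE 0.47, adjusted p = 0.0208). Of the 10 genes, Krt78 alone was called for any difference among the 4 stages (limma F test, adjusted p = 0.0446), beside 0.646% of all genes. At an unadjusted p of the same test 8 of the 10 were under 0.05, all but Krt2 and Krt23 (11.8% of all genes). The F call of Krt78 was lost with RIN or age as a covariate. It was also lost whenever 1 mouse other than dysplasia 1 was left out.

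Krt24 and Krt80 are a type I and a type II keratin whose partners are less settled. Krt24 was at 11.21, 11.30 and 11.01 in normal mucosa, at 8.53, 9.38 and 10.41 in hyperplasia, at 8.89, 7.06 and 9.09 in dysplasia, and at 6.87, 6.54 and 9.75 in tumors. As with Krt76, tumor 3 was the highest tumor, and no lesion overlapped normal mucosa. Krt24 fell 11-fold in tumor (−3.45, SE 0.77, limma adjusted p = 0.0417), with a range from −4.47 without tumor 3 to −2.86 without tumor 2. Krt80 was at 9.06, 10.05 and 9.25 in normal mucosa, at 7.35, 8.33 and 8.56 in hyperplasia, at 8.55, 6.59 and 7.26 in dysplasia, and at 7.48, 6.74 and 7.33 in tumors. Its 3 tumors were close together, and it fell 4.84-fold (−2.28, SE 0.47, limma adjusted p = 0.0295). In dysplasia neither gene was called, with differences of −2.82 (95% interval −4.50 to −1.15) for Krt24 and −1.99 (−3.01 to −0.97) for Krt80.

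Krt23, a type I keratin, was lower in lesions without a call. It was at 10.72, 11.07 and 11.39 in normal mucosa, at 8.54, 9.77 and 9.10 in hyperplasia, at 10.80, 6.0 and 9.58 in dysplasia, and at 10.32, 10.13 and 8.54 in tumors. Dysplasia 1 lay within the normal range and dysplasia 2 far below it. The tumor difference was −1.40 (95% interval −3.41 to 0.61, adjusted p = 0.476).

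Krt1, the type II keratin of the epidermal pair, ran opposite to the mucosal keratins before the tumor stage. It was at 7.78, 7.47 and 6.32 in normal mucosa, at 9.30, 9.26 and 9.62 in hyperplasia, at 10.49, 8.22 and 8.72 in dysplasia, and at 5.37, 7.02 and 7.57 in tumors. All 6 hyperplasia and dysplasia samples lay above every normal sample and every tumor. It was the only one of the 10 genes higher in every hyperplasia than in every normal sample (7.08% of all genes) and likewise in dysplasia (7.28%). The differences were 2.21 (95% interval 0.86 to 3.56) in hyperplasia and 1.96 (0.60 to 3.31) in dysplasia, neither of them called (limma adjusted p = 0.260 and 0.209). Tumor differed from normal mucosa by −0.54 (95% interval −1.89 to 0.82) and from dysplasia by −2.49 (−3.85 to −1.14, adjusted p = 0.644).

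Krt10, the partner of Krt1, was at 11.57, 12.41 and 11.23 in normal mucosa, at 12.74, 11.54 and 12.40 in hyperplasia, at 12.26, 9.66 and 10.53 in dysplasia, and at 7.78, 8.48 and 10.93 in tumors. Normal mucosa and hyperplasia overlapped (difference 0.49, 95% interval −1.18 to 2.16). Tumors were below every normal sample, and the difference of −2.67 (95% interval −4.35 to −1.0) was not called (limma adjusted p = 0.0988). Relative to normal mucosa, Krt1 minus Krt10 was 1.72 ± 0.58 in hyperplasia, 2.87 ± 0.20 in dysplasia and 2.14 ± 0.95 in tumors (SD, n = 3), and was at least 1.11 in all 9 lesions. Krt76, also a type II keratin, stood opposite, with a difference to Krt10 of −3.43 ± 1.98, −4.11 ± 0.65 and −2.23 ± 0.60 in the same order.

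Krt2, the type II keratin of upper epidermal layers, gave a dim signal throughout. Its values lay between 4.65 and 5.70 in the 12 mice, below the median of every array. The largest group difference, tumor minus normal, was −0.40 (95% interval −0.95 to 0.15).

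**Figure D2:**
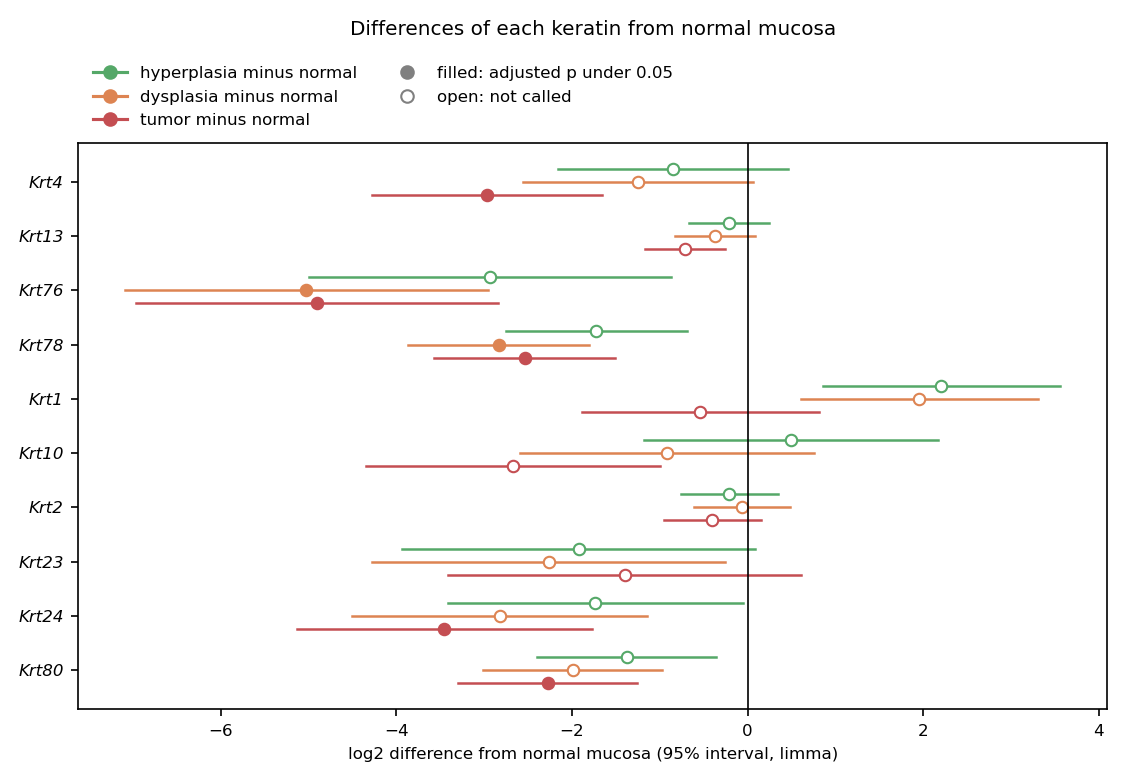
Log2 differences of the 10 keratin genes from normal mucosa (horizontal axis) with limma 95% intervals, for hyperplasia, dysplasia and tumor (3 mice each). Filled points have an adjusted p under 0.05. They are Krt76 and Krt78 in dysplasia, and Krt4, Krt76, Krt78, Krt24 and Krt80 in tumor. Krt1 lies to the right of 0 in hyperplasia and dysplasia.

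In hyperplasia several of the called genes showed much of their tumor difference, though the stages were different mice and not lesions followed in time. The share of the tumor difference present in hyperplasia was 68.0% for Krt78, 60.6% for Krt80, 59.8% for Krt76, 50.2% for Krt24 and 28.5% for Krt4. In dysplasia the shares were 112%, 87.4%, 102%, 81.8% and 41.9% in the same order. The lesion groups share the normal samples, so these shares are not independent of each other. None of the 10 genes was called between hyperplasia and normal mucosa, where limma called 16 genes in all (0.0654%). At an unadjusted p under 0.05 there were 5 of the 10 (Krt76, Krt78, Krt1, Krt24 and Krt80), beside 9.76% of all genes. By the methods' t-test, unadjusted, there were 7, beside 8.5%. Levels of 7 of the 10 were lower in every hyperplasia than in every normal sample (8.96% of all genes). By the difference of group means beyond 1, 5 were lower (1.65%) and Krt1 was higher (1.12%).

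In dysplasia 2 of the 10 genes, Krt76 and Krt78, were called lower than in normal mucosa, beside 0.503% of all genes called lower and 0.764% in either direction. At an unadjusted p under 0.05 Krt1, Krt23, Krt24 and Krt80 joined them (12.2% of all genes). Krt4, Krt13, Krt76, Krt78, Krt24 and Krt80 were lower in every dysplasia than in every normal sample (8.70%). By group means beyond 1, 6 were lower (2.38%) and Krt1 was higher (1.84%).

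Between the lesion stages no keratin of the 10 was called. Limma called 0 genes in all between hyperplasia and dysplasia, 0 between hyperplasia and tumor and 1 between dysplasia and tumor (0.00409%). At an unadjusted p under 0.05 there were 2 of the 10 for dysplasia minus hyperplasia (Krt76 and Krt78, 4.54% of all genes), 3 for tumor minus dysplasia (Krt4, Krt1 and Krt10, 6.34%) and 5 for tumor minus hyperplasia (Krt4, Krt13, Krt1, Krt10 and Krt24, 6.20%). By group means beyond 1, 4 (0.911%), 3 (0.997%) and 5 (1.18%) of the 10 were lower in the same order. All 10 genes overlapped between hyperplasia and dysplasia, where 3.71% of all genes were lower and 5.07% higher without overlap. Krt1 was the only gene of the 10 lower in every tumor than in every dysplasia (7.26% of all genes). Krt4, Krt13, Krt1 and Krt10 were lower in every tumor than in every hyperplasia (7.51%).

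Mice of 1 stage differed in how many of the keratins were low. In hyperplasia 4 to 6 of the 10 genes were over 1 below the normal mean, in dysplasia 3 to 7 and in tumors 6 to 7. By the median difference over the 10 genes, dysplasia 1 was nearest to normal mucosa (−0.26, against −2.69 in dysplasia 2 and −1.34 in dysplasia 3). That median joins opposite changes, as in dysplasia 1 Krt76 was −3.59, Krt24 −2.28 and Krt1 3.31 from the normal mean. Dysplasia 1 was also among the samples with a RIN under 6, and the part of RIN in its values was not tested. The same mouse had the highest mean of 10 T and NK cell genes (7.76, against 5.56 to 5.66 in normal mucosa and 6.47 to 6.65 in the other dysplasias). In dysplasia 2 of these 10 genes were called higher than in normal mucosa, and their part in the keratin values was not tested. Tumor 3 kept the highest Krt4, Krt13, Krt76, Krt78, Krt1, Krt10, Krt2 and Krt24 of the 3 tumors, but the lowest Krt23. In these dissected samples fewer suprabasal cells and less keratin RNA per cell cannot be told apart.

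**Figure D3:**
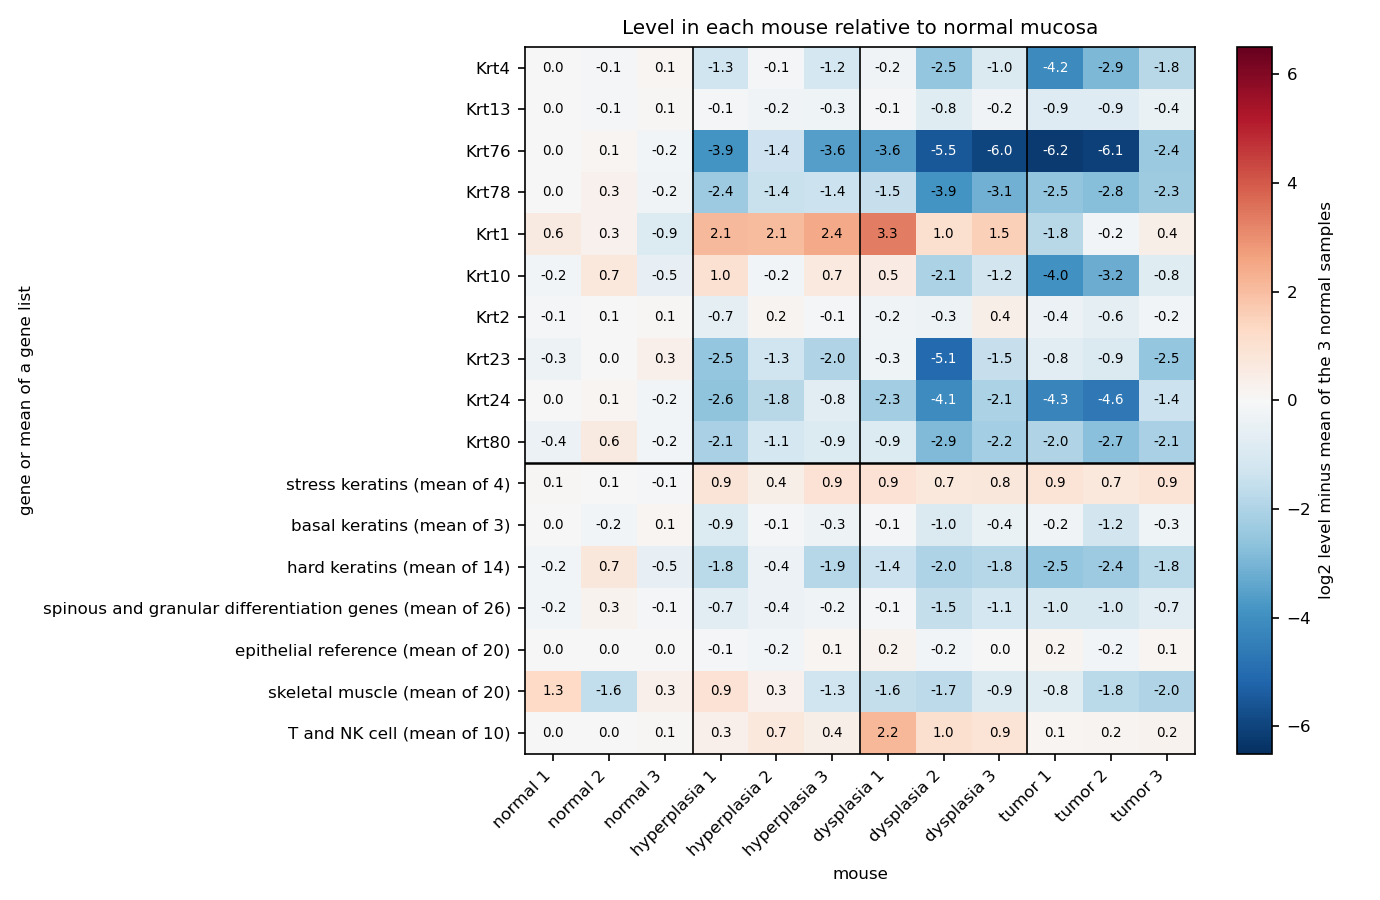
Log2 level of each keratin gene, and below the line the mean of whole gene lists, in each of the 12 mice (columns) minus the mean of the 3 normal samples, by color and printed value. Krt76 is lowest in tumors 1 and 2 and dysplasia 3. Krt1 is above normal in the 6 hyperplasia and dysplasia samples, while the stress keratins are higher in all 9 lesions.

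Across the 12 mice the keratins moved largely together. Of 45 pairs, 43 had a Pearson r above 0, with a median of 0.60 and a range from −0.24 to 0.96, as a description over samples that share stages. Highest were Krt78 with Krt80 (r = 0.96) and Krt4 with Krt13 (0.94). With stage means removed the median was 0.56, and these pairs stood at 0.93 and 0.83. Krt1 and Krt10 were at 0.68 over all mice and at 0.82 with stage means removed. Krt1 and Krt76 were at 0.01 over all mice and at 0.60 with stage means removed. That value is pooled over stages and did not hold in each. In hyperplasia the mouse with the highest Krt76 (10.67) had the lowest Krt1 (9.26).

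The genes most like the called keratins over the 12 mice were named by r alone. For Krt4 they were Serpinb3a (0.939), a serine protease inhibitor of squamous epithelium, Plppr4 (0.935) and Hpgd (0.934), which degrades prostaglandins. Krt76 was most like Nmu (0.955), Fthl17b (0.952) and Tchh (0.949), the last coding for trichohyalin of hair follicle and tongue papillae. Krt78 and Krt80 shared Ecm1 (0.979 and 0.978), an extracellular matrix protein of the upper epithelium, and 2300002M23Rik (0.978 and 0.986). The third gene was Eps8l1 (0.965) for Krt78 and Notch2 (0.966), a receptor of the Notch pathway, for Krt80. Krt24 was most like Serpina9 (0.938), Sertad4 (0.926) and Sptlc3 (0.920).

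The genes most like the uncalled keratins had lower r in most cases. Krt13 was most like 2610307P16Rik (0.917), Hba-x (0.914) and Serpinb3a (0.914). Krt1 was most like I730030J21Rik (0.889), Dsg1b (0.883), a desmosomal cadherin of differentiating keratinocytes, and Atf3 (0.868), a stress-induced transcription factor. Krt10 was most like Defa39 (0.909), Zfp707 (0.907) and Slc6a13 (0.904), Krt23 most like Olfr1057 (0.910), Ncoa1 (0.894) and Tmprss11a (0.891), and the dim Krt2 most like Chaserr (0.895), Ank3 (0.836) and Cxcl14 (0.824).

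Other keratin groups set the 10 genes in context, each given for tumor minus normal mucosa. All 44 other keratin genes had a median of −0.37, with 8 called lower and 2 higher. The 2 that rose were the stress keratins Krt6b (1.13, SE 0.22, limma adjusted p = 0.0240) and Krt17 (1.04, SE 0.19, adjusted p = 0.0190), of 4 stress keratins measured, which activated keratinocytes make. The 14 hard, hair-type keratins, which tongue makes in filiform papillae, had 7 called lower and a median of −2.23, close to the −2.41 of the 10 genes. Krt84 (−4.46), Krt36 (−4.25) and Krt34 (−4.09) fell most among them. None of 3 basal keratins was called (Krt15 −2.32, adjusted p = 0.165, and Krt14 0.38, adjusted p = 0.332), and none of 4 keratins of simple epithelia.

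Non-keratin genes of suprabasal cells made up a separate list. Of 26 spinous and granular differentiation genes, 6 were called lower and 1 higher in tumor, with a median of −0.75. Hrnr (−3.67), Flg (−3.44), both of the filaggrin family, and Ecm1 (−2.03) fell most. Among 23 regulators of suprabasal differentiation none was called. The largest differences were those of Prdm1 (−1.53, limma adjusted p = 0.0784), a repressor in upper layers, and Grhl3 (−1.24, adjusted p = 0.0614), a factor of barrier formation. The median over the 23 was −0.21.

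Lists for other cell types gave few calls in the same comparison. Of 13 fibroblast genes 1 was lower (Dcn, −3.06), of 12 endothelial genes 1 was higher (Cdh5, 1.33), and of 20 epithelial reference genes 1 was higher (Dsg3, 1.29). None of the 10 T and NK cell, 11 macrophage and Langerhans cell and 12 salivary and taste cell genes was called. Muscle genes were lower as a list without a call, with a median of −1.59 and 18 of 20 below 0. Acta1 (−3.34, limma adjusted p = 0.169) and Tnnc2 (−3.20, adjusted p = 0.173) showed the largest muscle differences. The part of the muscle signal in the keratin differences was not tested.

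The calls rested on few mice. For the 5 keratins called in tumor, all 75 values under the 15 alternatives that can move the difference were below 0. Every tumor lay below every normal sample for these genes, so leaving mice out could not turn the sign. With RIN as a covariate 0 of the 5 were called, and calls over all genes dropped from 1.97% to 0.0695%. The differences were then −2.44 for Krt4, −4.04 for Krt76, −1.83 for Krt78, −3.47 for Krt24 and −1.79 for Krt80. Their SEs were 0.77, 1.21, 0.54, 1.04 and 0.58 in the same order, each larger than without RIN. Without normal 1, normal 2, tumor 1 or tumor 2, 0 were called (0.617%, 0.572%, 0.621% and 0.739% of all genes), and without normal 3 only Krt78 (1.32%). Within the 1 preparation day that held both stages, tumor 1 minus normal 2 was −4.08 for Krt4, −6.34 for Krt76, −2.83 for Krt78, −4.43 for Krt24 and −2.57 for Krt80, with no test. The alternative with preparation day as a fixed block gave these same differences, so the 2 are not separate checks. These mice were labelled 20 and 12 weeks, and normal 2 was the highest normal sample for all of these genes but Krt4.

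**Figure D4:**
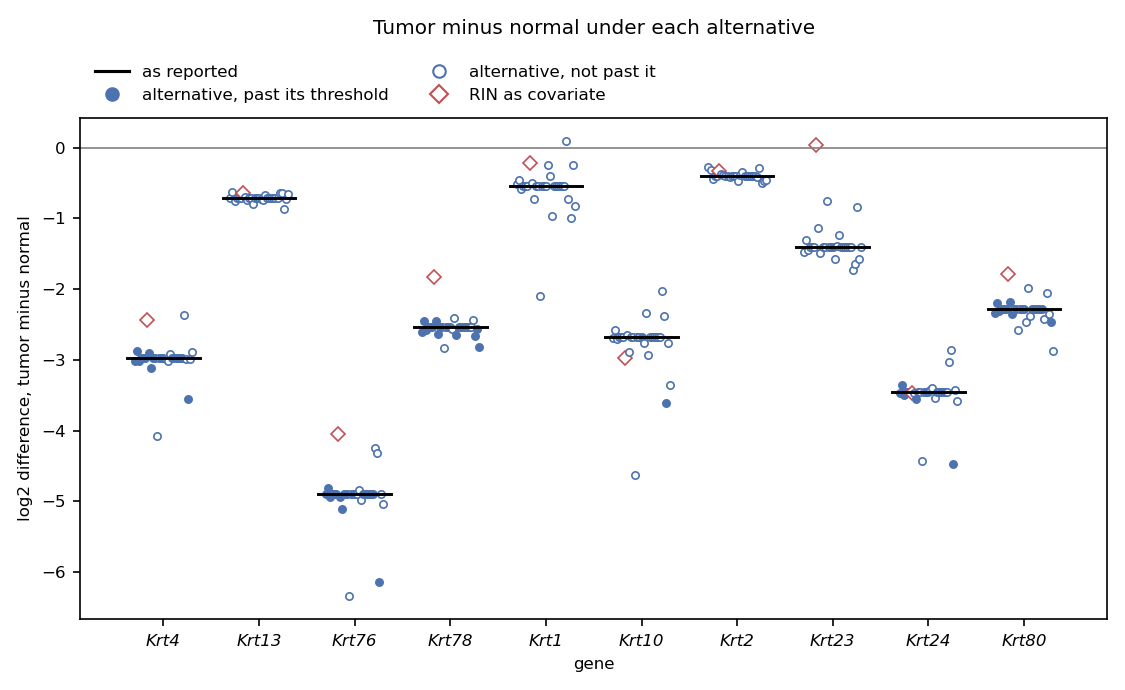
Tumor minus normal difference (vertical axis, log2) of each keratin gene as reported (line) and under each alternative (points, filled where past its threshold), with RIN as a covariate in red. All points of Krt4, Krt76, Krt78, Krt24 and Krt80 lie below 0, from −4.08 to −2.37, −6.34 to −4.04, −2.83 to −1.83, −4.47 to −2.86 and −2.87 to −1.79.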

How the data were processed

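Each of the 12 samples is 1 array of 1 mouse, and groups were taken from the sample labels. The log2 values were deposited by the authors after robust multi-array averaging and quantile normalization, 1 probe set per Entrez gene. The software versions and the build behind the probe sets are not given in the sources used here. Of 24479 probe sets, 23281 have 1 gene symbol and 1198 none, and for 2 symbols with more than 1 probe set the higher mean was kept, leaving 24477 genes.

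Group means of all 12 samples were fitted with limma 3.58.1 in R 4.3.3 (empirical Bayes, prior degrees of freedom 4.22) with Benjamini-Hochberg adjustment over all genes. On simulated data for tumor minus normal (24477 genes), 34% of genes changed by 1 and 86% of those changed by 2 on the log2 scale were called. The changed genes were drawn at random from all genes, each with the same spread in every stage. Krt76, in contrast, had an SD of 0.14 in normal mucosa and 2.15 in tumors. How often such changes of the keratins would be called is therefore not given by these shares. Arrays have no sequencing depth, and 3 mice per stage limit the precision, as an exact permutation test of 3 against 3 cannot go below p = 0.1. RIN and preparation day came from the study's sample table. Of 8 preparation days, 2 held more than 1 stage.

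The keratins and gene lists were chosen with earlier results of these data known. The genes named are all 10 keratins, up to 3 called genes per list (or 2 uncalled) and the 3 genes of highest r per keratin. Promoters are from RefSeq tables of GRCm38.p6, and gene positions come from the same release. Alternatives were other normalizations, centrings and filters, covariates, blocks, the methods' t-test and samples left out.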

Additional observations from a re-analysis of the deposited data

How the results depend on the processing

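Over 1136 alternative values of the 10 keratins in 4 comparisons (hyperplasia, and tumor, minus normal, dysplasia minus hyperplasia, tumor minus dysplasia), 1039 kept direction and call, 24 passed the threshold newly, 52 lost it and 21 turned direction, all of these uncalled. Only the 5 keratins called in tumor minus normal, with 145 of the 1136 values, had a call to lose. All 52 losses were among those 145. Many alternatives cannot move a difference, only its error. For the other comparisons only counts were taken. Shares of all genes called stand in brackets. For tumor minus normal, where 5 keratins were called, the count was 0 with RIN as covariate (0.0695%), with preparation day as a fixed block (0.172%) and with the methods' adjusted t-test (0.00409%). It was 2 without normal 1 and dysplasia 1 (Krt78 and Krt80, 1.36%), 1 without samples of a RIN under 6 (Krt78, 0.752%), and 0 to 5 with 1 mouse left out. For dysplasia minus normal, with 2 called, it was 1 with RIN (0.400%), with the replicate block (0.539%), with only the 2 groups compared (0.453%) or without samples of a RIN under 6 (0.601%). It was 0 with the fixed day block (0.204%) or the adjusted t-test (0 genes), 4 by the unadjusted t-test (8.82%), 7 by the difference over 1 (4.22%), and 0 to 3 with 1 mouse left out (0 without normal 1, normal 2, dysplasia 2 or dysplasia 3, and 1 without normal 3). For hyperplasia minus normal, with 0 called, it was 7 by the unadjusted t-test (8.5%) and 6 by the difference over 1 (2.77%). The difference over 1 gave 4 for dysplasia minus hyperplasia (1.74%), 3 for tumor minus dysplasia (1.70%) and 5 for tumor minus hyperplasia (1.94%), where the unadjusted t-test gave 3 (6.64%). For any difference among stages, with 1 called, it was 4 with arrays centred on epithelial genes (0.739%), 2 without the 30% dimmest genes (1.25%), 0 with RIN, age, the replicate block or without samples of a RIN under 6, and 0 to 3 with 1 mouse left out. The causes were not tested. Without samples of a RIN under 6 normal mucosa is 1 mouse, normal 2, whose spread was taken from the remaining stages.

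Turned values were as follows, with the range over mice left out in brackets. In tumor minus normal, Krt1 was 0.10 without tumor 1 (−0.99 to 0.10) and Krt23 0.04 with RIN. In hyperplasia minus normal, Krt2 was 0.02 without hyperplasia 1 (−0.39 to 0.02). In dysplasia minus hyperplasia without dysplasia 2, Krt4 was 0.24 (−0.90 to 0.24), Krt13 0.05 (−0.31 to 0.05), Krt1 0.21 (−0.93 to 0.21) and Krt23 1.05 (−1.34 to 1.05), and Krt2 was −0.08 without hyperplasia 1 and −0.09 without dysplasia 3 (−0.09 to 0.33). In tumor minus dysplasia, Krt76 was −0.03 with a random and −0.66 with a fixed day block, −0.13 without dysplasia 2, −0.34 without dysplasia 3 and −1.12 without tumor 3 (−1.12 to 0.84). There, with the fixed day block and without dysplasia 2, Krt78 was −1.03 and −0.22 (−0.22 to 0.96) and Krt23 −1.47 and −0.53 (−0.53 to 1.87). Krt80 was 0.25 without dysplasia 1, without normal 1 and dysplasia 1, and without samples of a RIN under 6 (−0.72 to 0.25).

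Replicate numbers were not taken to pair the mice, since each array came from a different mouse. With stage means removed, samples of the same number in different stages correlated at r = −0.113 to 0.112 (median 0.01). Those of different numbers correlated at −0.098 to 0.08 (median −0.013), and 6 of 12 samples were closest to their own number. The replicate block left 4 of the 5 tumor calls, Krt80 being lost. A fixed day block could not be fitted for contrasts with hyperplasia, which shared no day with another stage, and Krt2, among the dimmest genes, has no value without them.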

Other observations

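The change between normal mucosa and hyperplasia was set against the change between dysplasia and tumor, a contrast chosen after the values were seen. None of the 10 keratins was called (limma, 0.0163% of all genes called). Krt1 had the largest difference of the steps, 4.70 (SE 0.88, adjusted p = 0.183), since it was 2.21 higher at the first step and 2.49 lower at the last. Krt76 (−3.06, adjusted p = 0.777), Krt23 (−2.79, adjusted p = 0.781) and Krt78 (−2.02, adjusted p = 0.634) had the opposite sign, as had Krt24 (−1.10) and Krt80 (−1.09). Krt10 (2.25), Krt4 (0.88), Krt13 (0.14) and Krt2 (0.13) had the sign of Krt1.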
